A study of Mus musculus with 12 samples.

Results

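Timp1, Tgm2, Ecm1, Smim3, Frmd4b, Lad1 and Adh1 are 7 genes of 23991, selected on their measured FPKM differences between CD4+ T cells with and without Th17-polarizing cytokines, which were large in both genotypes. They also lie outside the usual lists of T cell genes. Each had 1 entry in every library, and all 7 passed the filter of at least 1 FPKM in at least 3 libraries, which 10126 genes passed. Because the choice used the cytokine effects, those effects are given as a description without a test. The comparison of Adcy10-/- with WT cells was not used for the choice and was tested, although it shares libraries with the cytokine effects.

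The study cultured CD4+ T cells for 18 hours with anti-CD3 (10 µg/mL). The cells came from spleens or lymph nodes of C57BL/6 males aged 8 to 10 weeks and were enriched by removing other cells with magnetic beads. The 4 groups of 3 libraries were Adcy10-/- cells with polarizing cytokines, WT cells with polarizing cytokines, Adcy10-/- cells in baseline medium and WT cells in baseline medium. Adcy10 encodes soluble adenylyl cyclase, which makes the second messenger cAMP. Besides anti-CD28 at 2 µg/mL, the protocol lists IL-6 at 25 ng/mL, IL-23 and IL-1β at 20 ng/mL, and blocking antibodies against IL-4 and interferon-γ at 1 µg/mL. It does not say which of these the baseline medium held, nor whether replicates came from separate mice, so the p-values measure the spread between these libraries, which may be technical. Neither the way the Adcy10 allele was made nor pooling of mice is given in the sources used here.

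IL-6 and IL-23 signal through STAT3 and IL-1 through NF-kB, and the 7 genes have varied roles in and around the cell. Timp1 encodes a secreted inhibitor of matrix metalloproteinases, and Ecm1 a secreted matrix glycoprotein that in mouse Th2 cells is known to promote exit from lymph nodes. Tgm2 encodes tissue transglutaminase, which crosslinks proteins and binds GTP, and Adh1 a class I alcohol dehydrogenase that oxidizes ethanol and retinol. Smim3 encodes a small membrane protein, Frmd4b a FERM domain scaffold that binds the Arf exchange factor cytohesin-3, and Lad1 ladinin, a protein of the filaments that anchor epithelia to the basement membrane.

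The stretches before the start sites of 2 genes that were higher with cytokines (Timp1, Ecm1) and of the 2 that were lower (Lad1, Adh1) are shown because the genes of each pair moved together across media. They are the 250 bases before a RefSeq start (GRCm38.p6), 5′ to 3′ on the gene's strand. Capitals mark every match to 6 patterns searched on both strands: TTCNNNGAA for STAT, TGA and TCA parted by any base for AP-1, GGG followed after any 5 bases by CC for NF-kB, AGGTCA for ROR, GAAA repeated after any 2 bases for IRF, and TATAAA for the TATA box.
Timp1, chrX:20869916-20870165, plus strand: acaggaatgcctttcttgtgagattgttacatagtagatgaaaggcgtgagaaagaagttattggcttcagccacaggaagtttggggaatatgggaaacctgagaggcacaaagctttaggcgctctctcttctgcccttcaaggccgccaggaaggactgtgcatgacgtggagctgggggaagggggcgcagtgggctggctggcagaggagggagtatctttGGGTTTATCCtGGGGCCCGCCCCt
Ecm1, chr3:95739570-95739819, minus strand: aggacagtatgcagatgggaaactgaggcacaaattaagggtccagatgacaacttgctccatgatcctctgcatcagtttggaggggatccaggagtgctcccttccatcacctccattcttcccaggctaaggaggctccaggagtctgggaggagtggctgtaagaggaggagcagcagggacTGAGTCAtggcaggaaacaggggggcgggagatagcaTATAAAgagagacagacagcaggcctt
Lad1, chr1:135818348-135818597, plus strand: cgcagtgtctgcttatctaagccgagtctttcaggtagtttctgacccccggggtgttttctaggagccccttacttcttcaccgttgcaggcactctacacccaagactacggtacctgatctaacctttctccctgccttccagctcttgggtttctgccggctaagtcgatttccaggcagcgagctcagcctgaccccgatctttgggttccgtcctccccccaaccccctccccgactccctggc
Adh1, chr3:138277335-138277584, plus strand: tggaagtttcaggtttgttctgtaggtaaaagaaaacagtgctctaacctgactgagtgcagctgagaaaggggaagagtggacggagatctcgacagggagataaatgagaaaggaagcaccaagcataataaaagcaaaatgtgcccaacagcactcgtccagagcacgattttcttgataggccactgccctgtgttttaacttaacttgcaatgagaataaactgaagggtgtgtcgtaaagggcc

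The Timp1 stretch held the NF-kB pattern in an interval that ends at base -2 before the start, with 1 match at bases -24 to -15 and overlapping matches on both strands between -13 and -2. The Ecm1 stretch held an AP-1 match at -64 to -58 and a TATA box at -27 to -22. The Lad1 and Adh1 stretches held none of the 6 patterns. Of Frmd4b's 3 listed starts, 1 held an AP-1 match (-133 to -127) and a ROR match, 1 held an NF-kB match, and 1 held no match. The start with the AP-1 match also held the TATAAA pattern, but on the opposite strand and at -216 to -211. Over 32851 stretches of the same length, 45.8% held the NF-kB pattern, 4607 stretches the ROR pattern, 12.4% the TATA box, 7.02% the STAT pattern, 6.75% the AP-1 pattern and 2.98% the IRF pattern. The matches describe letters, not bound sites.

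Libraries summed to 547870 to 594750 FPKM and held 9778 to 9925 genes at 1 FPKM or more. Depth in reads is unknown. Adcy10 was listed at 0 in 12 of 12 libraries, which leaves the genotype labels unchecked by its level. All 10 CD4 T cell markers stood at 1 FPKM or more in each library, with Cd4 at 119 to 179 FPKM. On the log2(FPKM + 1) scale the first principal component (34.3% of the variance) separated the media, and the next (22.6%) separated the libraries numbered 1 from those numbered 2 and 3.

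Timp1 and Ecm1, the 2 secreted proteins, were both higher with cytokines in each genotype, Timp1 from a level near the filter and Ecm1 from one already high. Timp1 had 15.9, 25.7 and 17.1 FPKM in Adcy10-/- cells with cytokines, against 0.205, 5.24 and 2.48 FPKM in Adcy10-/- cells at baseline (replicates 1, 2 and 3). It had 17.4, 19.3 and 25.9 FPKM in WT cells with cytokines, against 0.897, 0.762 and 4.92 FPKM in WT cells at baseline. Groups did not overlap in either genotype, and the highest baseline library (5.24 FPKM) lay below the lowest library with cytokines (15.9 FPKM). The mean ratio was 7.40 in Adcy10-/- and 9.52 in WT cells, and single baseline libraries weighed on it: it was 14.5 without Adcy10-/- baseline replicate 2 and 25.2 without WT baseline replicate 3. The log2(FPKM + 1) differences were 2.76 (SE 0.56) and 3.00 (SE 0.56), each ranking 3 among 10126 tested genes by increase. This scale understates changes of low genes: with a pseudocount of 0.1 the Adcy10-/- difference was 3.57.

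Ecm1 had 124, 89.5 and 105 FPKM in Adcy10-/- cells with cytokines, against 48.2, 59.8 and 51.6 FPKM in Adcy10-/- cells at baseline. In WT cells it had 129, 98.6 and 93.9 FPKM with cytokines, against 55.7, 37.0 and 44.3 FPKM at baseline. It was the most abundant of the 7 genes with cytokines, where its mean lay above 92.4% of tested genes in Adcy10-/- and 92.3% in WT cells. Its log2(FPKM + 1) difference was the smallest of the 7 in both genotypes, 0.98 (SE 0.17) in Adcy10-/- and 1.22 (SE 0.17) in WT cells, at rank 56 and rank 36 by increase. It was also the 1 gene of the 7 under a difference of 1 on that scale, in Adcy10-/- cells.

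The enzymes moved in opposite directions: Tgm2 was higher and Adh1 lower with cytokines. Tgm2 had 16.2, 9.49 and 15.7 FPKM in Adcy10-/- cells with cytokines, against 0.730, 3.36 and 2.48 FPKM in Adcy10-/- cells at baseline. It had 18.9, 11.2 and 21.6 FPKM in WT cells with cytokines, against 1.505, 1.07 and 5.94 FPKM in WT cells at baseline. Its libraries numbered 2 were the lowest with cytokines in both genotypes. The log2(FPKM + 1) differences were 2.28 (SE 0.46) in Adcy10-/- and 2.42 (SE 0.46) in WT cells, at rank 5 and rank 4 by increase.

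Adh1 had 1.71, 1.73 and 1.58 FPKM in Adcy10-/- cells with cytokines, against 10.9, 4.16 and 6.32 FPKM in Adcy10-/- cells at baseline. It had 1.10, 1.38 and 0.808 FPKM in WT cells with cytokines, against 6.88, 6.62 and 3.17 FPKM in WT cells at baseline. The groups did not overlap, and Adh1 was the least abundant of the 7 with cytokines. The mean ratio was 0.235 in Adcy10-/- and 0.197 in WT cells, and the log2(FPKM + 1) differences were -1.52 (SE 0.29) and -1.598 (SE 0.29).

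Among the membrane and cytoskeletal genes, Smim3 and Frmd4b were higher and Lad1 lower with cytokines. Smim3 had 10.3, 12.5 and 12.3 FPKM in Adcy10-/- cells with cytokines, against 2.26, 4.25 and 3.65 FPKM in Adcy10-/- cells at baseline. In WT cells it had 13.1, 12.2 and 11.5 FPKM with cytokines, against 2.26, 3.67 and 3.62 FPKM at baseline. The libraries of a group lay close together with cytokines, with an SD of 10.5% of the mean in Adcy10-/- and 6.46% in WT cells. The log2(FPKM + 1) differences were 1.55 (SE 0.18) in Adcy10-/- and 1.68 (SE 0.18) in WT cells.

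Frmd4b had 5.96, 4.98 and 5.92 FPKM in Adcy10-/- cells with cytokines, against 0.778, 1.85 and 1.47 FPKM in Adcy10-/- cells at baseline. It had 7.73, 4.61 and 6.83 FPKM in WT cells with cytokines, against 1.10, 1.11 and 2.31 FPKM in WT cells at baseline. At baseline its means, 1.37 FPKM in Adcy10-/- and 1.51 FPKM in WT cells, were the lowest of the 7 genes, yet no library with cytokines fell to the baseline range. The log2(FPKM + 1) differences were 1.51 (SE 0.22) in Adcy10-/- and 1.57 (SE 0.22) in WT cells, or 2.04 and 2.07 with a pseudocount of 0.1.

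Lad1 had 12.3, 12.3 and 14.5 FPKM in Adcy10-/- cells with cytokines, against 45.3, 31.4 and 44.1 FPKM in Adcy10-/- cells at baseline. It had 17.6, 16.6 and 18.6 FPKM in WT cells with cytokines, against 43.8, 43.4 and 40.3 FPKM in WT cells at baseline. Both media were tightly grouped except for Adcy10-/- baseline replicate 2. The log2(FPKM + 1) differences were -1.54 (SE 0.12) in Adcy10-/- and -1.23 (SE 0.12) in WT cells, at rank 13 and rank 30 by decrease.

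**Figure D1:**
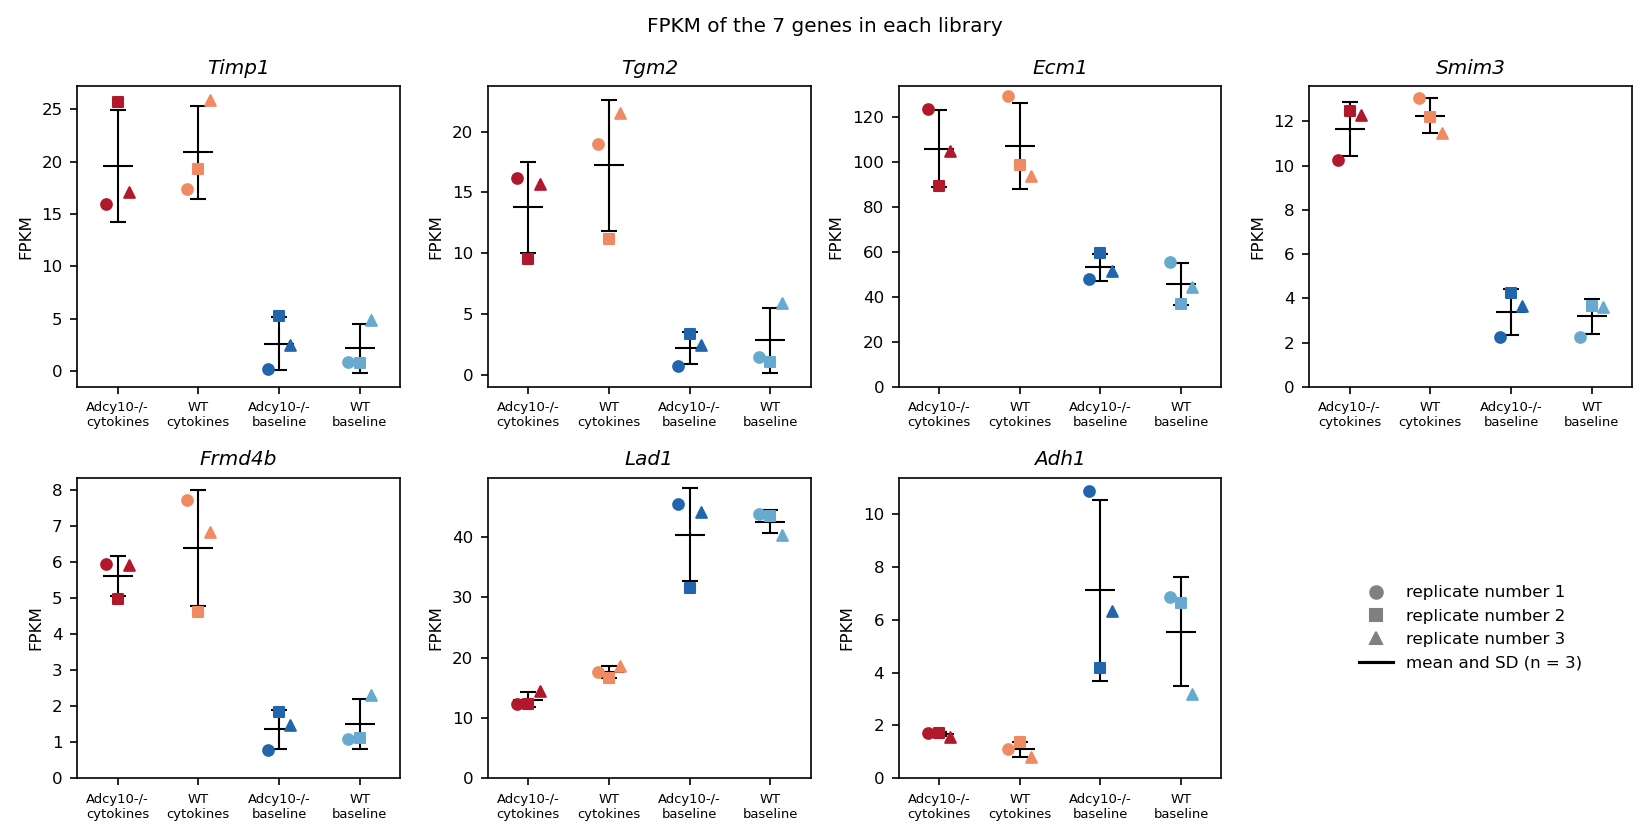
FPKM of the 7 genes in each of the 12 libraries, by group, with the mean and SD (n = 3) in black and the marker shape giving the replicate number. For each gene the libraries with cytokines and those at baseline form ranges that do not overlap, for example 15.9 to 25.9 against 0.205 to 5.24 FPKM for Timp1 and 12.3 to 18.6 against 31.4 to 45.3 FPKM for Lad1.

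The order of the 4 group means was set by medium for each gene. For Timp1, Ecm1 and Smim3 it ran WT with cytokines, Adcy10-/- with cytokines, Adcy10-/- at baseline, WT at baseline. For Tgm2 and Frmd4b the 2 baseline groups changed places. In these 5 genes the genotypes overlapped within each medium. For Lad1 the order was WT baseline, Adcy10-/- baseline, WT cytokines, Adcy10-/- cytokines, and for Adh1 it was Adcy10-/- baseline, WT baseline, Adcy10-/- cytokines, WT cytokines. For these 2 genes the genotypes overlapped at baseline and lay apart with cytokines. Between media all 7 genes differed without overlap in each genotype, 5 of them higher and 2 lower with cytokines. Of tested genes 21.6% did so in Adcy10-/- (9.28% higher, 12.3% lower) and 20.8% in WT cells (10.5% higher, 10.3% lower). The members' count follows from their choice and nothing is read from it. Each gene kept its direction in 3 of 3 same-numbered pairs of either genotype. The paired differences of Timp1 were 3.81, 2.10 and 2.38 in Adcy10-/- and 3.28, 3.52 and 2.18 in WT cells (log2 scale).

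**Figure D2:**
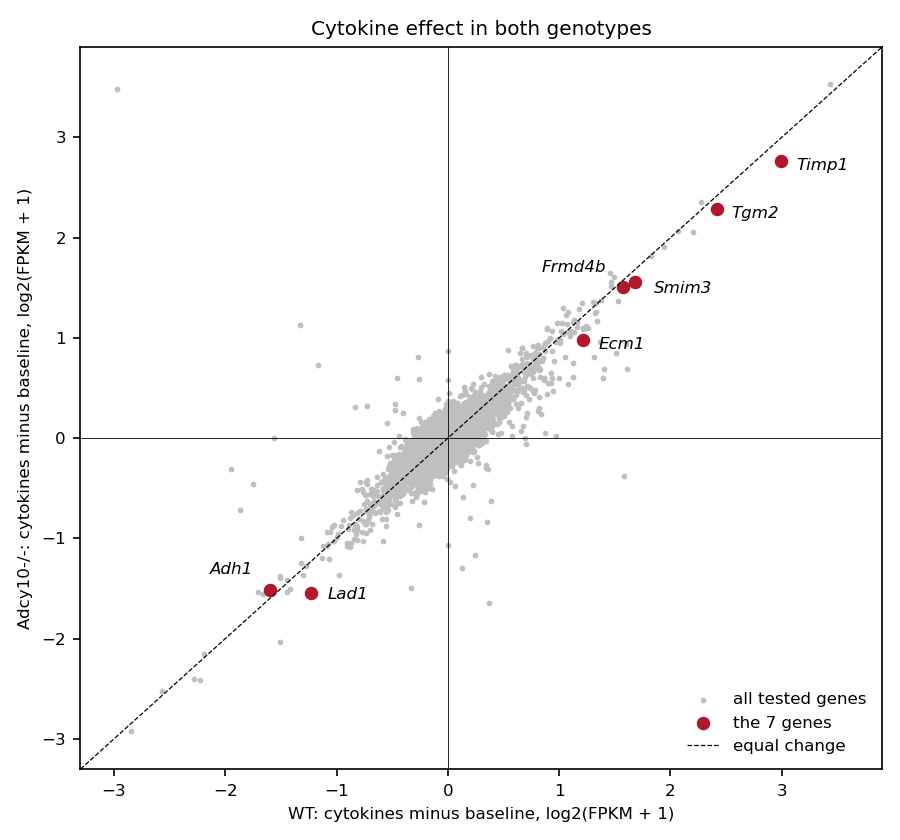
Cytokines minus baseline on the log2(FPKM + 1) scale in WT (x axis) and Adcy10-/- cells (y axis) for the tested genes (grey, 6 lie outside the axes) and the 7 chosen genes (red). The 7 lie near the dashed line of equal change, and Lad1 lies below it at -1.54 in Adcy10-/- and -1.23 in WT cells.

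Adcy10-/- and WT cells were compared within each medium, the question the study's design poses. Limma called 0 of the 7 genes in either medium (adjusted p = 1.00 for each), and 0% of all 10126 tested genes, with 202 at unadjusted p under 0.05 with cytokines and 118 at baseline. With cytokines, Lad1 and Adh1 did not overlap between genotypes, 2 of the 7, where 5.08% of tested genes did not (1.68% higher, 3.4% lower in Adcy10-/- cells). Lad1 averaged 13.03 ± 1.26 FPKM in Adcy10-/- and 17.6 ± 0.974 FPKM in WT cells with cytokines (SD, n = 3 each), a log2(FPKM + 1) difference of -0.41 (95% interval -0.67 to -0.15). It was lower in 3 of 3 same-numbered pairs, by -0.48, -0.41 and -0.34. Unadjusted limma p was 0.00546, which did not hold over all tested genes (adjusted p = 1.00, or 0.705 with replicate number as a block).

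At baseline Lad1 averaged 40.3 ± 7.70 FPKM in Adcy10-/- and 42.5 ± 1.89 FPKM in WT cells (SD, n = 3 each; log2 difference -0.09, 95% interval -0.35 to 0.17). At baseline 0 of the 7 genes lay apart between genotypes, against 4.99% of tested genes (2.57% higher, 2.42% lower). Lad1 lies on chromosome 1, as Adcy10 does, while Adh1 lies on chromosome 3. Whether position bears on the Lad1 difference was not tested. The averaged genotype difference of Lad1 was -0.25 (SE 0.08, adjusted p = 1.00 by limma), and limma again called 0 of the 10126 genes, with 180 at unadjusted p under 0.05.

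Adh1 stood on the other side, with 1.67 ± 0.0783 FPKM in Adcy10-/- and 1.10 ± 0.287 FPKM in WT cells with cytokines (SD, n = 3 each). Its log2(FPKM + 1) difference was 0.36 (95% interval -0.27 to 0.99), or 0.60 with a pseudocount of 0.1, and was higher in 3 of 3 same-numbered pairs. At baseline Adh1 averaged 7.12 ± 3.43 FPKM in Adcy10-/- and 5.56 ± 2.07 FPKM in WT cells, and the groups overlapped. The summed levels of 8 macrophage and 7 dendritic cell markers also lay apart with cytokines, for macrophages at 21.6 to 28.6 FPKM in Adcy10-/- and 29.4 to 104 FPKM in WT cells, and their part in the Lad1 and Adh1 differences was not tested.

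The other 5 genes overlapped between genotypes in both media. With cytokines their log2(FPKM + 1) differences were -0.10 for Timp1, -0.29 for Tgm2, -0.01 for Ecm1, -0.07 for Smim3 and -0.14 for Frmd4b. Tgm2 was lower in 3 of 3 same-numbered pairs, by -0.22, -0.21 and -0.43. The 95% interval of Timp1 ran from -1.32 to 1.12 (-1.12 to 0.92 with the replicate block) and that of Tgm2 from -1.29 to 0.71 (-1.13 to 0.56 with the block), while Ecm1 (-0.38 to 0.35) and Smim3 (-0.45 to 0.32) were narrower. At baseline Timp1 gave 0.14 (-1.08 to 1.36), Tgm2 -0.15 (-1.15 to 0.85) and Ecm1 0.23 (-0.13 to 0.59), so a p that missed the threshold does not show equal levels.

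**Figure D3:**
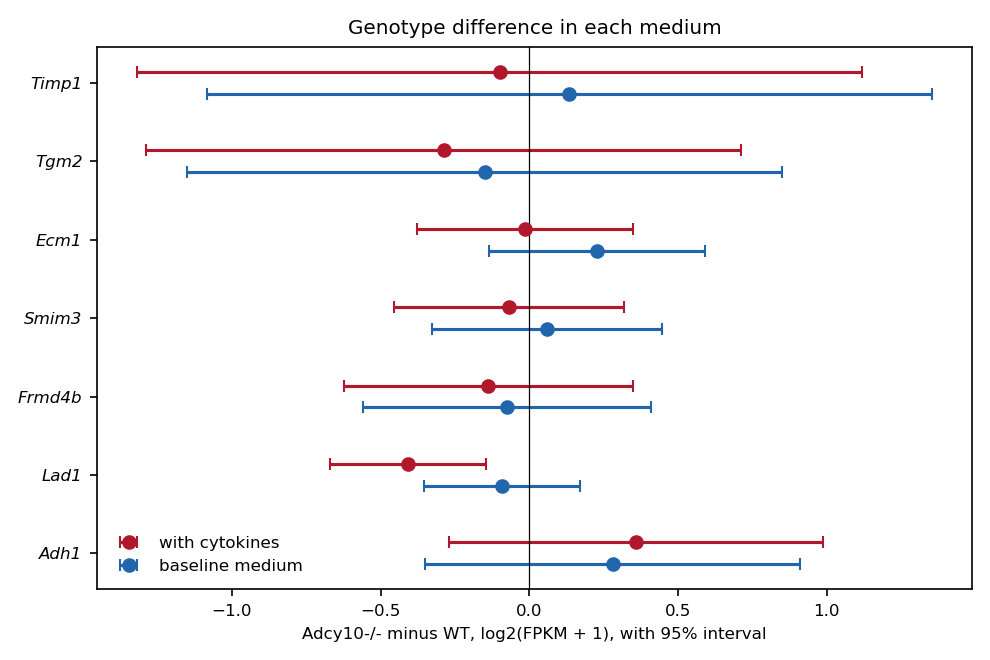
Adcy10-/- minus WT on the log2(FPKM + 1) scale with 95% intervals for each gene, with cytokines (red) and in baseline medium (blue), n = 3 libraries per group. The intervals come from the fit without the replicate block. The intervals include 0 except for Lad1 with cytokines (-0.67 to -0.15), and those of Timp1 and Tgm2 are the widest.

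Subtracting the WT cytokine effect from the Adcy10-/- one, as a description since the choice used both, gave -0.32 (SE 0.17) for Lad1, -0.24 (SE 0.23) for Ecm1, -0.24 (SE 0.79) for Timp1 and -0.14 (SE 0.64) for Tgm2. Smim3 gave -0.13 (SE 0.25), Frmd4b -0.06 (SE 0.31) and Adh1 0.08 (SE 0.41). For Lad1 the cytokine decrease was thus the larger in Adcy10-/- cells, by less than 2 SE.

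Medium held 81.5% to 94.0% of the sum of squares of the 7 genes over the 12 libraries, against a median of 14.04% for all tested genes, which again follows from the choice. Genotype held 0.000615% (Smim3) to 3.43% (Adh1), and replicate number 1.25% (Lad1) to 6.77% (Timp1), against medians of 2.22% and 33.3% for all tested genes. All are shares of the same total, so a large medium share leaves little for the rest. The choice thus bears on these shares too, and nothing is read from them.

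Within groups, the genes varied together. After subtracting each group's mean, Timp1 and Tgm2 gave r = 0.78 over the 12 libraries, Tgm2 and Frmd4b 0.95, Timp1 and Adh1 -0.95, and Tgm2 and Adh1 -0.91. Other pairs were weaker, such as -0.34 for Tgm2 and Lad1. With cytokines Timp1 and Tgm2 did not move alike. Their deviations there were -0.25, 0.41 and -0.15 against 0.25, -0.46 and 0.21 in Adcy10-/- cells. In WT cells with cytokines they were -0.23, -0.09 and 0.32 against 0.18, -0.53 and 0.36. The libraries share handling and the deviations have fewer independent values than libraries, so these are descriptions. Ecm1 followed the others least, with 0.05 against Timp1, -0.16 against Smim3 and -0.17 against Adh1. On the log2(FPKM + 1) scale the spread of Timp1 lay mostly at baseline, where its level was low. It deviated there by -1.30, 1.07 and 0.23 in Adcy10-/- and by -0.51, -0.62 and 1.13 in WT libraries. With cytokines it deviated by at most 0.41 either way. In FPKM the order reversed: its SD was 5.33 in Adcy10-/- and 4.46 in WT cells with cytokines, against 2.52 and 2.36 at baseline. The spread of Ecm1 on the log2 scale was alike in both media, at -0.23 to 0.28 with cytokines and -0.28 to 0.30 at baseline. Tgm2 deviated by -0.46 and -0.53 in the libraries numbered 2 with cytokines.

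The same baseline libraries ranked high or low for Il21, a Th17 and follicular helper cytokine gene. Il21 ranked 3 among 6970 genes by Pearson's r with Timp1 over the same 12 libraries (r = 0.99). It was named for that likeness, so its following Timp1 across the baseline libraries comes from the choice and nothing is read from it. Il21 had 1.84, 9.98 and 6.11 FPKM in Adcy10-/- and 2.58, 4.404 and 13.4 FPKM in WT baseline libraries. Adcy10-/- replicate 2 and WT replicate 3, the highest for Timp1, Tgm2 and Frmd4b in their groups, were also the highest for Il21 and the lowest for Adh1. Both also lay nearest the cytokine libraries on the first principal component, at 6.43 and 4.93, against 10.8 to 20.4 for the other 4 baseline libraries and -14.7 to -9.05 with cytokines. What sets these libraries apart was not tested.

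**Figure D4:**
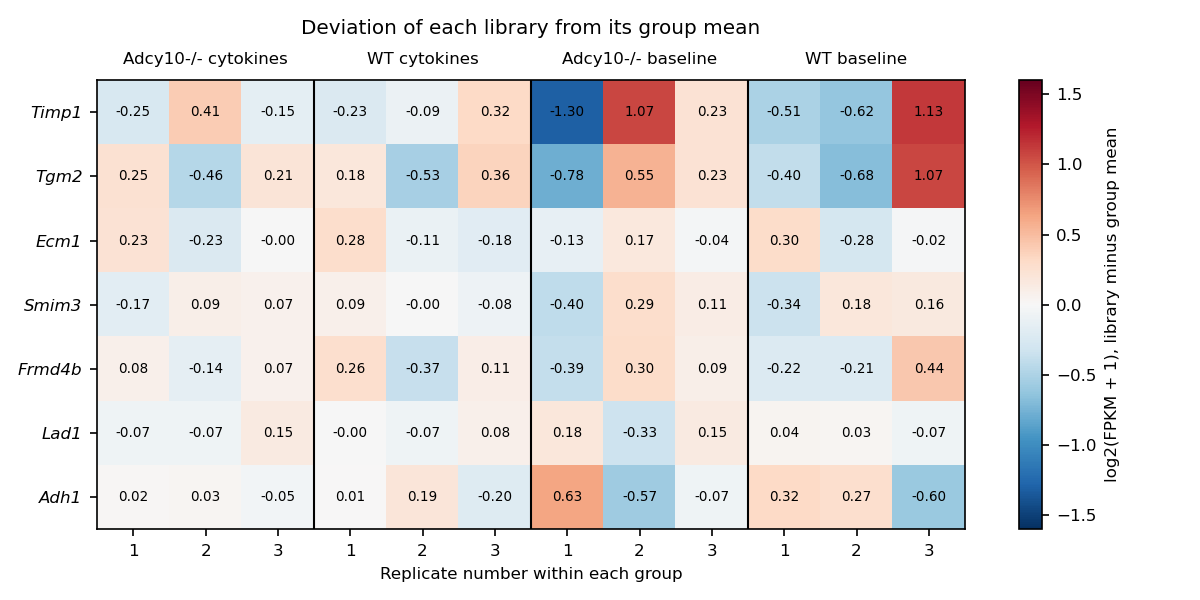
Deviation of each library from its group mean on the log2(FPKM + 1) scale, for the 7 genes (down the page) and 12 libraries (across, in groups with replicate numbers). Adcy10-/- baseline replicate 2 and WT baseline replicate 3 are high for Timp1 (1.07 and 1.13) and low for Adh1 (-0.57 and -0.60), and Timp1 deviates by at most 0.41 with cytokines.

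Genes most like each of the 7 were ranked by Pearson's r of log2(FPKM + 1) over the 12 libraries among 6970 genes with a mean of at least 5 FPKM. The ranking rests largely on the difference between media, and the libraries share handling. Timp1 was most like Sh3rf1 (r = 0.99), which encodes a scaffold ubiquitin ligase, Nfil3 (0.99), a bZIP transcription factor gene, and Il21 (0.99). Tgm2 was most like Spsb1 (0.99), which encodes a SOCS box protein, the chromatin organizer gene Satb1 (0.99) and Arid5a (0.99), which encodes an RNA-binding protein. Frmd4b was most like the chromatin remodeler gene Chd7 (0.99), the NF-kB scaffold gene Malt1 (0.98) and the kinase gene Sik3 (0.98). These genes were picked for likeness to genes chosen by the cytokine effect, so their own cytokine differences are given without a test. Il21 had the largest of them (log2 3.53 in Adcy10-/- and 3.43 in WT cells), and Malt1 averaged 78.0 against 24.6 FPKM in Adcy10-/- and 73.6 against 26.4 FPKM in WT cells, with cytokines against baseline.

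Ecm1 was most like the cell cycle inhibitor gene Cdkn2d (r = 0.98), Ssbp4 (0.98) and Ddr1 (0.97), which encodes a collagen receptor kinase. Smim3 was most like the calcium sensor gene Ncs1 (0.99), the RNA editing gene Adarb1 (0.99) and the sulfotransferase gene Chst2 (0.98). The genes that were lower with cytokines had their own partners: Lad1 was most like the kinase gene Pim2 (0.99), the adaptor gene Grap (0.98) and Tagap (0.98), and Adh1 was most like the deacetylase gene Hdac7 (0.99), the interferon-inducible Mndal (0.97) and Mmd (0.97). Pim2 averaged 101 FPKM in Adcy10-/- cells with cytokines against 210 FPKM at baseline, and 114 against 215 FPKM in WT cells. With group means subtracted, the likeness was lower for some pairs, such as 0.63 for Lad1 and Pim2, and stayed at 0.97 for Timp1 and Nfil3.

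Genes related to the 7 by family or pathway were counted in the same fit, where limma called 4.27% of tested genes for the cytokine effect in Adcy10-/- (2.14% higher, 2.12% lower) and 4.93% in WT cells (2.65% higher, 2.28% lower), with medians of -0.02 and -0.01 on the log2 scale. With replicate number as a block, 1086 genes (10.7%; 4.74% higher, 5.98% lower) were called in Adcy10-/- and 1502 (14.8%; 7.41% higher, 7.43% lower) in WT cells, against 432 and 499 without it, and blocked counts follow each list except the small integral membrane proteins. The lists leave out the 7 genes. In the list of metalloproteinases and their inhibitors, the families around Timp1, 11 of 43 genes were tested, mostly Adam and Adamts genes. It is not a list of Timp1 targets. In Adcy10-/- cells 1 rose and 1 fell, and in WT cells 1 rose and 2 fell (medians 0.06 and 0.12). Adam15, a membrane disintegrin metalloproteinase gene, rose (log2 0.43 in Adcy10-/-, 0.40 in WT; adjusted p = 0.00475 and 0.00612), and Adamts6, which encodes a secreted protease, fell (-0.66 and -0.75; adjusted p = 0.0232 and 0.0113). Adam10, a sheddase gene, gave -0.33 in Adcy10-/- cells (adjusted p = 0.0572) and fell in WT cells (-0.41, adjusted p = 0.0206). With the block 2 rose and 2 fell in Adcy10-/-, and 3 rose and 2 fell in WT cells. These then included Timp2, the gene of another metalloproteinase inhibitor, at 0.36 in Adcy10-/- and 0.54 in WT cells (blocked adjusted p = 0.00214 and 0.000201), and Adam10 in both genotypes. The metalloproteinase gene Mmp14 was called in WT cells (0.78, blocked adjusted p = 0.0473) but not in Adcy10-/- cells (0.48, blocked adjusted p = 0.236).

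Of the transglutaminases and Tgm2 partners, 10 of 20 were tested and 0 were called by limma in either genotype (medians -0.04 and -0.05), among them S100a10 and Anxa2, genes of an annexin complex. Of the alcohol dehydrogenases and retinoid genes, 18 of 44 were tested and 0 were called (medians -0.09 and -0.03). Adh5, which encodes the class III dehydrogenase, averaged 92.4 ± 4.73 FPKM in Adcy10-/- cells with cytokines and 99.4 ± 2.37 FPKM at baseline (SD, n = 3 each). Its log2 difference was -0.10 in Adcy10-/- and -0.13 in WT cells. Crabp2, which encodes a retinoic acid-binding protein, gave 0.55 and 0.48 (adjusted p = 0.0952 and 0.129). With the block 2 retinoid genes rose and 1 fell in each genotype. Of all tested genes 4.74% rose and 5.98% fell in Adcy10-/-, and 7.41% rose and 7.43% fell in WT cells with the block. Crabp2 (blocked adjusted p = 0.00997 and 0.0161) and the retinol transporter gene Stra6 (0.71 and 0.68; 0.0113 and 0.0123) rose, and the retinoid X receptor gene Rxra fell (-0.38 and -0.33; 0.0118 and 0.0215). The block called 0 transglutaminase list genes in Adcy10-/- and 1 in WT cells, Anxa1 (0.55, blocked adjusted p = 0.0435). Of the small integral membrane protein genes, 11 of 18 were tested and 0 were called (medians 0.00 and 0.02), among them Smim11 and Smim4.

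The FERM domain, cytohesin and Arf6 list, around Frmd4b, held 19 tested of 33. In Adcy10-/- cells 3 rose and 0 fell, and in WT cells 4 rose and 0 fell (medians 0.07 and 0.10). Of all tested genes 2.14% rose in Adcy10-/- and 2.65% in WT cells. Cyth4, a cytohesin gene, rose by 0.65 and 0.62 (adjusted p = 0.00197 and 0.00277), Farp1, a FERM domain exchange factor gene, by 0.48 and 0.46 (adjusted p = 0.0126 and 0.014), and Arf6, the GTPase gene on which cytohesins act, by 0.28 and 0.26 (adjusted p = 0.0336 and 0.046). The gene of the integrin activator kindlin-3, Fermt3, gave 0.17 in Adcy10-/- cells (adjusted p = 0.115) and rose by 0.24 in WT cells (adjusted p = 0.0253). Limma called 0 of all tested genes for the difference between the cytokine effects, with 112 at unadjusted p under 0.05. With the block 4 of the list rose and 2 fell in Adcy10-/- (all tested genes 4.74% and 5.98%), and 5 rose and 2 fell in WT cells (all tested genes 7.41% and 7.43%). Those that fell were Cyth3, the gene of the cytohesin that Frmd4b is known to bind (-0.43 and -0.33; blocked adjusted p = 0.00699 and 0.021), and Ezr, the gene of the membrane linker ezrin (-0.20 and -0.15; 0.0171 and 0.0429).

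Basement membrane and desmosome genes, the setting in which ladinin is known, had 8 of 24 tested. In Adcy10-/- cells 1 rose, and in WT cells 3 rose, with 0 lower (medians 0.15 and 0.16). Of all tested genes 2.14% rose in Adcy10-/- and 2.65% in WT cells, or 4.74% and 7.41% with the block. The plakophilin gene Pkp3 rose by 0.38 and 0.52 (adjusted p = 0.0275 and 0.00545), and Lamc1 (0.61) and Perp (0.46) rose in WT cells (adjusted p = 0.0454 and 0.0248). With the block 2 rose in Adcy10-/- (Lamc1 also, blocked adjusted p = 0.0078) and 3 in WT cells. Of extracellular matrix genes, Ecm1's class, 9 of 41 were tested. In Adcy10-/- cells 1 rose and in WT cells 2 rose, with 0 lower (medians 0.26 and 0.35). Srgn, which encodes the granule proteoglycan serglycin, rose by 0.56 and 0.49 (adjusted p = 0.00222 and 0.00481), and Lgals1, a galectin gene, rose by 0.32 in WT cells (adjusted p = 0.0162). With the block 1 rose in Adcy10-/- and 4 in WT cells, where Lgals3 (0.81, blocked adjusted p = 0.0272) and Emilin1 (0.37, 0.043) joined them. The shares of all tested genes given above for the basement membrane list apply here too.

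Markers of cells that could carry these genes into the cultures were read beside them, and lower RNA per cell and fewer cells of a type cannot be told apart in bulk RNA. Of 10 fibroblast and stromal markers, Thy1, which mouse T cells express, was the 1 at 1 FPKM or more in all 12 libraries, and Col1a1 reached at most 0.225 FPKM and Pdgfrb 0.0403 FPKM. Of 9 endothelial markers, Pecam1 and Egfl7 stood at 1 FPKM or more in all 12, while Lyve1 was listed at 0 in all 12 and Cdh5 reached 0.0200 FPKM. Of 10 epithelial markers, Epcam, Krt19 and Sfn did so, and Krt5 reached 0.0178 FPKM. Their sum was 21.5 to 28.8 FPKM in Adcy10-/- and 24.1 to 27.6 FPKM in WT cells with cytokines, against 20.3 to 22.7 and 17.7 to 23.1 FPKM at baseline, apart between media in WT cells. The stromal sum, nearly all Thy1, was 307 to 345 FPKM in Adcy10-/- and 320.4 to 360.3 FPKM in WT cells with cytokines, against 347 to 379 and 345 to 378 FPKM at baseline, apart between media in Adcy10-/- cells. The endothelial sum was 20.6 to 27.6 FPKM with cytokines and 22.3 to 35.2 FPKM at baseline.

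The macrophage marker sum lay apart between media in Adcy10-/- cells and, narrowly, between genotypes with cytokines. It overlapped between media in WT cells and between genotypes at baseline. Of 8 markers, Cd68 and Lyz2 were at 1 FPKM or more in all 12 libraries, Mrc1 reached 0.0892 FPKM, and none was at 0 throughout. Lyz2 made up most of the sum, at 11.8 to 93.5 FPKM, and Cd68 had 2.60 to 5.97 FPKM. Their sum was 21.6 to 28.6 FPKM in Adcy10-/- and 29.4 to 104 FPKM in WT cells with cytokines, against 15.5 to 20.6 FPKM in Adcy10-/- and 20.4 to 66.2 FPKM in WT cells at baseline. Neutrophil markers, of which 0 of 7 were at 1 FPKM throughout, summed to 0.958 to 18.0 FPKM in Adcy10-/- and 12.99 to 67.2 FPKM in WT cells with cytokines, against 1.21 to 6.06 and 5.40 to 20.9 FPKM at baseline. The sum of NK cell markers, 0 of 6 at 1 FPKM throughout, lay apart between media, at 5.67 to 8.17 FPKM in Adcy10-/- and 6.21 to 10.6 FPKM in WT cells with cytokines, against 3.51 to 3.59 and 3.26 to 3.96 FPKM at baseline. Gzma (up to 8.80 FPKM) and Klrd1 (up to 2.92 FPKM) made up most of it. Klrk1 reached 0.731, Ncr1 0.218, Klrb1c 0.176 and Klra8 0.0349 FPKM. Dendritic cell markers, 0 of 7 at 1 FPKM throughout, lay apart between genotypes with cytokines, at 0.647 to 1.46 FPKM in Adcy10-/- and 1.56 to 2.19 FPKM in WT cells, against 0.834 to 1.65 and 1.32 to 2.54 FPKM at baseline. The compared groups overlapped for the remaining lists, which summed to 2.04 to 53.1 FPKM for B cells, 8.43 to 14.7 FPKM for CD8 T cells, 0.987 to 5.28 FPKM for platelets and 0.809 to 193 FPKM for red cells. The B cell sum split by replicate number, as the second principal component did. It was 2.04 to 8.07 FPKM in the libraries numbered 1 and 25.4 to 53.1 FPKM in those numbered 2 and 3. The part of these cells in the levels of the 7 genes was not tested.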

How the data were processed

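RNA from 12 mouse CD4+ T cell libraries (4 groups of 3) was profiled. The authors deposited FPKM values for each library; per the submitters' processing notes the tools were STAR 2.4.0f1, SAMtools 0.1.19, Cufflinks and HTSeq with mm9. The strand setting is not given in the sources used here. FPKM carries no read counts, so depth and the precision it gives are unknown.

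Entries of the 258 gene IDs listed repeatedly were summed, and values were transformed as log2(FPKM + 1). The genes tested (1 FPKM or more in 3 or more libraries) were modelled as 4 group means with limma 3.58.1 in R 4.3.3 (empirical Bayes with trend). Adjustment for multiple testing followed Benjamini and Hochberg across the 10126 genes, and adjusted p under 0.05 was called. The fit was tested on simulated data with noise drawn independently for each library. Deviations shared by libraries of the same number were not simulated. Tables and figures used Python 3.11.15, numpy 2.4.6, pandas 2.3.3 and matplotlib 3.10.9. Promoter stretches and chromosomes came from RefSeq tables of GRCm38.p6, matched by symbol; 5 of the 7 genes had a stretch.

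The 7 genes, the related lists and the marker lists were chosen with earlier results of these data known. Named beside them were the 3 most alike genes of each (leaving out receptor segments, small RNAs and predicted genes) and, per list, up to 3 with the largest change among those called in both genotypes, or else the 2 most abundant. Adam10, Fermt3, Lamc1, Perp and Lgals1, called in 1 genotype, were added after their values were seen, as were the genes named under the replicate block and the marker genes with values. The blocked result of the small integral membrane protein list is not reported here.

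Libraries of the same number were checked for shared deviations from group means. They correlated at 0.294 to 0.536 within a genotype across media and at 0.262 to 0.422 between genotypes with cytokines (median 0.270, 3 pairs). Between genotypes at baseline the range was wider, at 0.0736 to 0.523 (median 0.371, 3 pairs). The numbers were taken as pairs for the media compared within a genotype and for the genotypes compared with cytokines. They were not so taken between genotypes at baseline because of the lowest pair there, although the median was not lower. The main fit did not use these pairs. SEs, intervals and p-values not marked as blocked are therefore unpaired. With the block the Lad1 interval between genotypes with cytokines was -0.63 to -0.18, against -0.67 to -0.15 without it.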

Additional observations from a re-analysis of the deposited data

How the results depend on the processing

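Alternatives were a pseudocount of 0.1, no filter or a mean of 5 FPKM (which drops Frmd4b and Adh1), median-ratio or quantile scaling, no variance trend, the first of repeated entries, only the 2 groups compared, replicate blocks and leaving out each library. No alternative called any of the 7 genes between genotypes, and the cytokine difference kept its direction for all 7 in both genotypes. Lad1 with cytokines ranged from -0.48 to -0.37 (adjusted p = 0.705 to 1.00) and Adh1 from 0.26 to 0.60 (0.97 to 1.00). The cause of the changes below was not tested. Replicate number as a block raised the genes called for the cytokine effect to 1086 in Adcy10-/- and 1502 in WT cells (1193 and 1574 with a block within genotype), against 432 and 499 without it. It gave 3 genes for the averaged genotype effect, where pairing at baseline was uneven (r = 0.0736 to 0.523), and changed no call of the 7 genes between genotypes. Fitting only the 2 groups compared gave 275 in WT cells. Replicate numbers 2 and 3 alone, chosen after seeing the data, gave 205 for the cytokine effect in Adcy10-/- cells, 2 for the genotype effect with cytokines, 2 averaged and 1 for the difference between the cytokine effects. Leaving out each library gave 196 (without Adcy10-/- cytokines replicate 1) to 465 in Adcy10-/- and 164 (without WT baseline replicate 2) to 536 in WT cells, 0 to 1 for the genotype effect with cytokines, averaged and for the difference, and 0 at baseline. The Timp1 cytokine difference then ranged from 2.11 to 3.30 in Adcy10-/- and 2.69 to 3.56 in WT cells, and that of Tgm2 from 1.89 to 2.56 and 2.08 to 2.95. Some genotype differences near 0 changed sign. With a pseudocount of 0.1, Timp1 gave -0.011 at baseline and -0.058 averaged. Smim3 averaged gave 0.0038 with median-ratio and 0.0060 with quantile scaling, and Ecm1 with cytokines 0.016 with quantile scaling. With numbers 2 and 3 alone, Ecm1 gave 0.0096 and Smim3 0.058 with cytokines, Tgm2 0.041 and Frmd4b 0.0071 at baseline, and Smim3 0.074 averaged. Leaving out each library, with cytokines, Timp1 ranged from -0.30 to 0.059, Ecm1 from -0.13 to 0.13 and Smim3 from -0.11 to 0.015. At baseline Timp1 ranged from -0.40 to 0.79, Tgm2 from -0.49 to 0.39, Smim3 from -0.11 to 0.26, Frmd4b from -0.22 to 0.14, Lad1 from -0.18 to 0.073 and Adh1 from -0.037 to 0.56. Averaged, Timp1 ranged from -0.25 to 0.34, Tgm2 from -0.39 to 0.049, Smim3 from -0.089 to 0.096 and Frmd4b from -0.20 to 0.0026. With 3 libraries a group and no read counts, small differences of low genes such as Timp1 and Adh1 could not be resolved.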
